A study of Homo sapiens with 12 samples.

Results

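Glutathione is the tripeptide of glutamate, cysteine and glycine that buffers the redox state of the cytosol and supplies electrons to the glutathione peroxidases and glutaredoxins. Its cysteine is taken up as cystine or made from homocysteine by transsulfuration, its synthesis is limited by glutamate-cysteine ligase, and its oxidized form is reduced again by glutathione reductase. Within the cytosol it is cleaved by the ChaC enzymes, which release 5-oxoproline and cysteinylglycine. Tumour cells draw on this network when reactive oxygen species are high, and CHAC1 is widely used as a read-out of the ATF4 arm of the stress response.

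The 10 genes described here were taken by name out of 32077 genes in the count table, with earlier results of these data known. They comprise CHAC1 and CHAC2 (breakdown), CTH and CBS (transsulfuration), GCLC and GSS (synthesis), GSR (recycling), and GPX1, GPX4 and GLRX (use). In the deposited table (GRCh38) CHAC1 spans 40952962 to 40956519 on the plus strand of chromosome 15, CHAC2 spans 53767792 to 53775196 on the plus strand of chromosome 2, and CTH spans 70411218 to 70439851 on the plus strand of chromosome 1. CBS spans 43053191 to 43076943 on the minus strand of chromosome 21, and GCLC spans 53497341 to 53616970 on the minus strand of chromosome 6. GSS spans 34928430 to 34955817 on the minus strand of chromosome 20, GPX1 spans 49357176 to 49358600 on the minus strand of chromosome 3, GPX4 spans 1103926 to 1106791 on the plus strand of chromosome 19, and GLRX spans 95751319 to 95823005 on the minus strand of chromosome 5. GSR lies on the minus strand of chromosome 8, from 30678061 to 30727926. All 10 were in the table, and all 10 passed the filter on low counts in every comparison. RNA-seq was used to measure them in PC3 and DU145, established lines of human prostate cancer whose growth is independent of androgen. Each line, labelled wild type, was grown in 6-well plates for 48 hours with 2.5 μmol/L pentamidine, an aromatic diamidine used against protozoa and Pneumocystis, or with vehicle in its place. Each of the 4 groups had 3 samples, which makes 12. The labels do not say whether the samples of a group were separate cultures, so the p-values measure the spread between these samples, which may be technical.

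Total counts ranged from 13514195 to 15131436 per library. Samples of a group were least alike in PC3 vehicle, where the mean chi-square per gene between a pair of libraries was 3.41 to 6.70. In the other groups it was 1.67 to 2.95. The PC3 vehicle group enters every comparison except that within DU145. The share of reads on mitochondria-encoded genes was 3.79% to 3.91% in PC3 vehicle libraries and 2.66% to 2.76% with pentamidine, and 4.41% to 4.66% and 1.97% to 2.07% in DU145. With those genes removed before normalization the CHAC1 log2 fold change was 3.91 in PC3 and 2.89 in DU145, and the same members passed in each line. The epithelial keratin KRT8 had 238 to 307 counts in libraries labelled PC3 and 25835 to 38812 in libraries labelled DU145, and KRT18 had 2125 to 3085 and 9962 to 13423. Other defining epithelial genes were at or near 0, with at most 2 counts of EPCAM, 3 of KRT19 and 10 of CDH1 in any library. The lines are therefore named as labelled throughout, and the reason for these values was not tested. Genes of leukocytes (PTPRC and LYZ) had at most 1 count in any library.

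CHAC1, which encodes the ChaC glutathione-specific gamma-glutamylcyclotransferase induced under stress, rose in both lines and by more than any other of the 10 genes. Its level was 8.34, 9.85 and 8.41 CPM (counts per 1000000 reads after TMM normalization) in the 3 PC3 vehicle libraries and 134, 130 and 137 CPM in the 3 pentamidine libraries. In DU145 it was 10.7, 9.18 and 8.26 CPM with vehicle and 71.9, 67.7 and 68.2 CPM with pentamidine. Every pentamidine library lay far above every vehicle library, and the vehicle libraries of the lines overlapped. The log2 fold change was 3.91 ± 0.077 (SE, n = 3 per group; edgeR adjusted p = 1.0e-16) in PC3 and 2.89 ± 0.078 (edgeR adjusted p = 7.8e-36) in DU145, that is 15.1-fold and 7.43-fold. In bulk RNA, more RNA per cell and a larger share of expressing cells cannot be told apart.

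CHAC1 was the only member with a match to the ATF4 element among the promoter windows searched. Windows of the 4 breakdown and transsulfuration genes are shown. RefSeq promoter windows (GRCh38.p14, 250 bases before a start and 50 after) were given for 8 of the 10 genes, 13 windows in all. They were searched on both strands for TGATGNAA, the composite element bound by ATF4 with a C/EBP partner, for TGACGTCA, the cAMP response element, and for TGACNNNGC, the core of the antioxidant response element. Sequences are written 5′ to 3′ on the strand of the gene, with a match in capitals. For CHAC1 30 bases around the match are given, since its window also lies in the first exon of longer transcripts. For the other 3 the bases of the window that lie in no annotated exon are given.
CHAC1, chr15:40953251-40953280, plus strand: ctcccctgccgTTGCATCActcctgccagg
CBS, chr21:43076379-43076627, minus strand: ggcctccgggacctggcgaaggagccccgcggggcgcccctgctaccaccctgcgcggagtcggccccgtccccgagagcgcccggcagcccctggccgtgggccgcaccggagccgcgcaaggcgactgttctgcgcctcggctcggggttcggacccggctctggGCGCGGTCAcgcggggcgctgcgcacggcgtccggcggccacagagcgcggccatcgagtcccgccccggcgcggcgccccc
CTH, chr1:70411018-70411217, plus strand: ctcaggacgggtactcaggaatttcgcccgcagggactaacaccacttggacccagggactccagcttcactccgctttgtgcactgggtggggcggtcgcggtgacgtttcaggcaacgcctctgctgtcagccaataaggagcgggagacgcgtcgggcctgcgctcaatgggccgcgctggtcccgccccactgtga
CHAC2, chr2:53767533-53767782, plus strand: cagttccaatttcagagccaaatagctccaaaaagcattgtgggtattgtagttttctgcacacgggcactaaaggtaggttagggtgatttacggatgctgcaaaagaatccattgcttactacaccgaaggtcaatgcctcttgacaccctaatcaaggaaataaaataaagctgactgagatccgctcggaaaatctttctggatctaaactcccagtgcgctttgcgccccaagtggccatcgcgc

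In CHAC1 the match to TGATGNAA was TTGCATCA on the opposite strand, with its first base at -209 from the RefSeq start. Of all 35116 RefSeq windows, 3.62% held TGATGNAA on either strand. In CBS the match to TGACNNNGC was GCGCGGTCA on the opposite strand, at -83 from the start of 1 of its 3 windows, and 13.3% of all windows held that motif. None of the 13 windows held TGACGTCA, which 1.85% of all windows held. The windows of CTH and CHAC2 held none of the 3 motifs. A match is a description of the letters only, and these data contain no binding measurement.

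CHAC2 encodes the paralogue of CHAC1 that is expressed without stress and cleaves glutathione slowly. It moved the other way in PC3. Its level was 20.2, 22.5 and 19.5 CPM in PC3 vehicle libraries and 12.9, 13.0 and 13.3 CPM in PC3 pentamidine libraries, and all pentamidine libraries were below all vehicle libraries. The log2 fold change was -0.66 ± 0.098 (SE, n = 3; edgeR adjusted p = 3.5e-05). In DU145 the levels were 14.3, 17.0 and 13.6 CPM with vehicle and 12.4, 12.4 and 12.7 CPM with pentamidine. Here too the groups did not overlap, but the log2 fold change of -0.25 ± 0.11 (95% interval -0.46 to -0.047) did not pass the test (edgeR adjusted p = 0.0568). It passed without DU145 vehicle replicate 3, at an edgeR adjusted p of 0.0331.

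**Figure D1:**
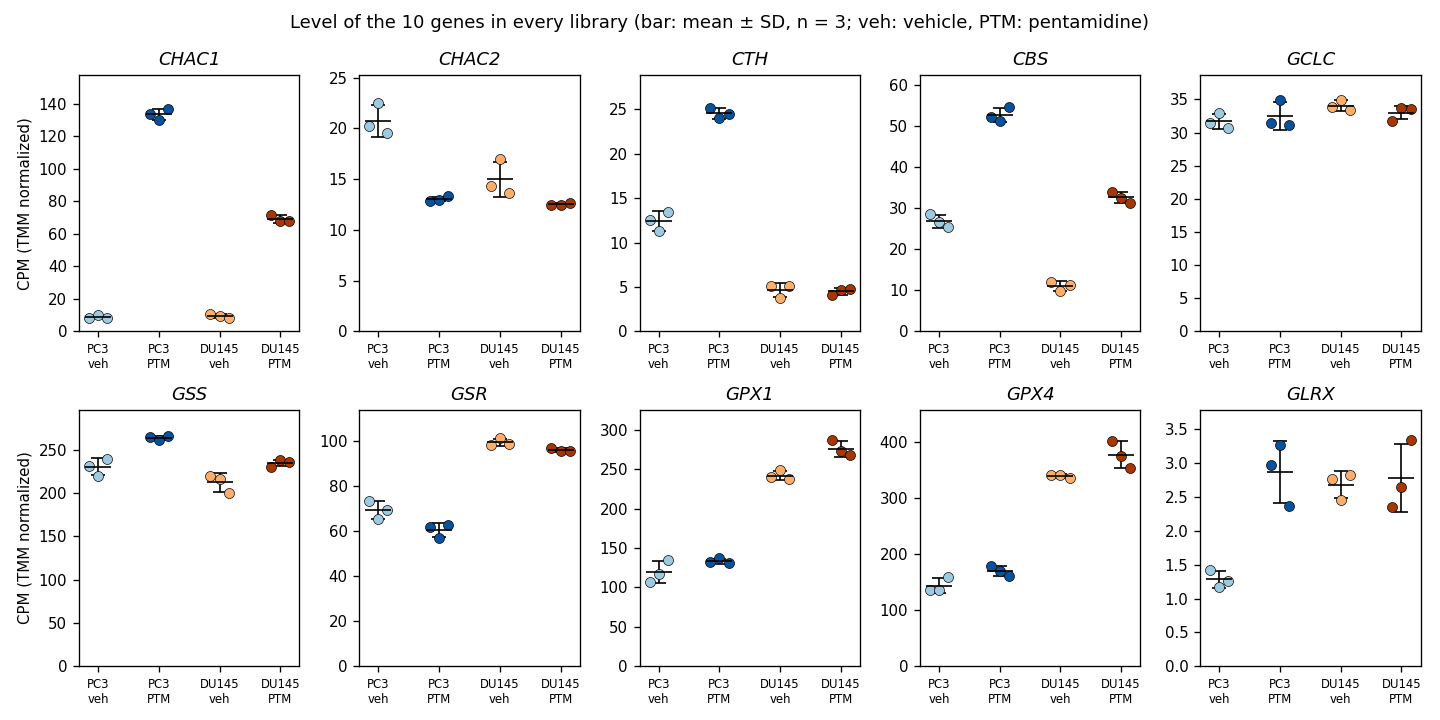
Level of the 10 genes in CPM (vertical axis, linear, from 0) in each of the 12 libraries by group (horizontal axis), with 1 point per library and the mean ± SD of 3 libraries as bars. CHAC1 rose from between 8.26 and 10.7 CPM with vehicle to 130 to 137 CPM in PC3 and 67.7 to 71.9 CPM in DU145, CTH went from at most 13.5 to at least 24.0 CPM in PC3, and the GCLC groups overlapped in both lines.

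The CHAC1 read count was set against that of the synthesis genes GCLC and GSS, and of the other breakdown gene CHAC2, in the same library. Library scaling cancels in these ratios. GCLC and GSS changed little, so the ratios to them mainly restate the change of CHAC1. CHAC1 had 0.279 ± 0.0177 (SD, n = 3) times the reads of GCLC in PC3 vehicle libraries and 4.12 ± 0.354 times with pentamidine. In DU145 the ratio was 0.275 ± 0.0358 with vehicle and 2.099 ± 0.138 with pentamidine. The vehicle ratios of the lines were alike in range, from 0.247 to 0.316 in DU145 and 0.265 to 0.299 in PC3, and the pentamidine ratios were separate. Relative to GSS the ratio went from 0.0387 ± 0.00534 to 0.506 ± 0.00911 in PC3 and from 0.0441 ± 0.00387 to 0.296 ± 0.0147 in DU145. Relative to CHAC2 it went from 0.427 ± 0.0129 to 10.2 ± 0.175 in PC3 and from 0.631 ± 0.104 to 5.54 ± 0.209 in DU145. With 3 libraries against 3 an exact permutation test cannot go below p = 0.1, so these ratios are given without a test. They are ratios of reads, and the genes differ in length.

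**Figure D2:**
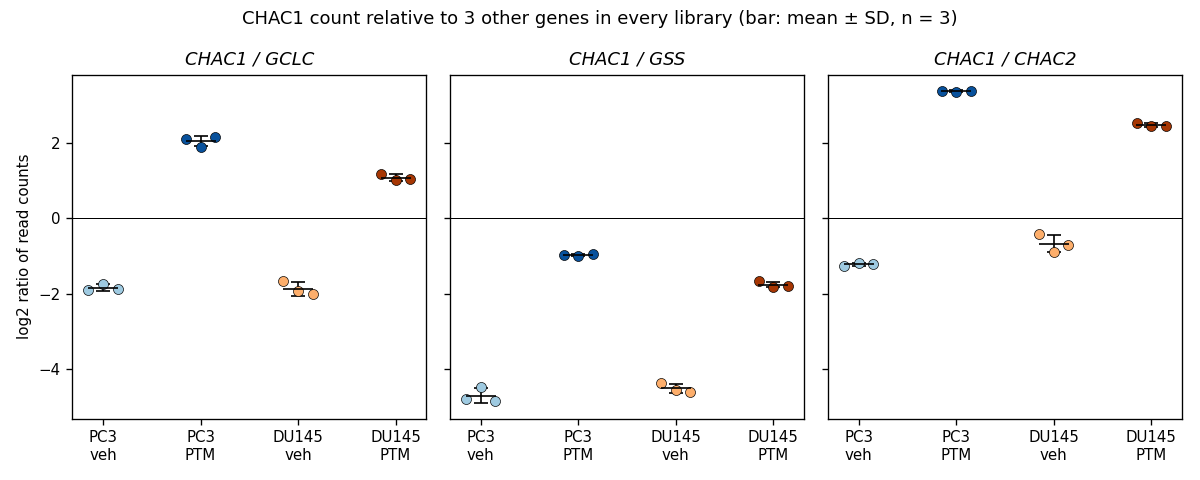
Log2 ratio of the CHAC1 count to the counts of GCLC, GSS and CHAC2 (vertical axis) in each library by group (horizontal axis), with 1 point per library and the mean ± SD of 3 libraries as bars. The mean log2 ratio to GCLC was 3.88 higher with pentamidine in PC3 and 2.94 higher in DU145, and no pentamidine library fell in the range of its vehicle group in any of the 3 panels.

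Of the transsulfuration genes, CBS rose in both lines, while CTH passed the test in PC3 alone. CBS, cystathionine beta-synthase, joins homocysteine and serine in the first step. Its level was 28.6, 26.6 and 25.4 CPM in PC3 with vehicle and 52.2, 51.3 and 54.7 CPM with pentamidine. In DU145 it was 12.01, 9.81 and 11.4 CPM with vehicle and 34.0, 32.6 and 31.4 CPM with pentamidine. The groups did not overlap in either line. By the reads assigned to CBS alone, every DU145 pentamidine library lay above every PC3 vehicle library. The log2 fold change was 0.98 ± 0.071 (SE, n = 3; edgeR adjusted p = 7.5e-09) in PC3 and 1.57 ± 0.090 (edgeR adjusted p = 6.5e-21) in DU145.

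CBS is uncertain in level because CBSL, a near-identical copy on the same chromosome (21), also took reads. CBSL had 29.6% to 33.4% of the reads of both genes in PC3 libraries and 10.6% to 25.3% in DU145 libraries. Its level was 11.2 to 13.3 CPM in PC3 with vehicle and 3.87 to 6.01 CPM in DU145 with pentamidine. With the CPM of CBS and CBSL added, PC3 vehicle and DU145 pentamidine libraries overlapped, so their order above depends on the copy. With the counts of both added, a setting chosen after seeing the data, the log2 fold change was 0.96 in PC3 and 1.47 in DU145, and the edgeR adjusted p was 2.6e-09 and 1.2e-20.

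CTH, cystathionine gamma-lyase, releases cysteine in the second step. Its level doubled in PC3, from 12.5, 11.3 and 13.5 CPM with vehicle to 25.2, 24.0 and 24.5 CPM with pentamidine, with no overlap. The log2 fold change was 0.99 ± 0.096 (SE, n = 3; edgeR adjusted p = 3.0e-07), just short of 1 on the log2 scale. In DU145 CTH was low in all 6 libraries, at 5.15, 3.71 and 5.10 CPM with vehicle and 4.08, 4.62 and 4.80 CPM with pentamidine, and the groups overlapped. There the log2 fold change was -0.04 (95% interval -0.40 to 0.31; edgeR adjusted p = 0.889). These DU145 values rest on 53 to 74 counts per library.

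Of the synthesis enzymes, GCLC, the catalytic subunit of glutamate-cysteine ligase and the rate-limiting step, had 31.5, 32.9 and 30.7 CPM in PC3 with vehicle and 31.5, 34.9 and 31.2 CPM with pentamidine. In DU145 it had 33.8, 35.0 and 33.4 CPM with vehicle and 31.8, 33.7 and 33.6 CPM with pentamidine. The groups overlapped in both lines. The 95% interval of its log2 fold change was -0.11 to 0.19 in PC3 (edgeR adjusted p = 0.691) and -0.17 to 0.093 in DU145 (edgeR adjusted p = 0.698). A change above 0.2 in size on the log2 scale therefore lay outside the interval in both lines. Part of the GCLC exons, 6.12% of their length, is shared with an annotated non-coding gene on the same strand, for which no count was analysed here.

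GSS, glutathione synthetase, adds glycine in the last step of synthesis. Its level was 231, 220 and 239 CPM in PC3 with vehicle and 264, 261 and 266 CPM with pentamidine. In DU145 it was 220, 216 and 200 CPM with vehicle and 230, 237 and 236 CPM with pentamidine. The groups were separate in both lines but close. On the log2 scale the rise was 0.20 ± 0.049 (SE, n = 3; edgeR adjusted p = 0.00288) in PC3 and 0.15 ± 0.036 (edgeR adjusted p = 9.0e-04) in DU145.

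GSR, glutathione reductase, regenerates glutathione with NADPH. Its level was 73.4, 65.6 and 69.3 CPM in PC3 with vehicle and 61.9, 57.0 and 62.7 CPM with pentamidine. The log2 fold change of -0.19 ± 0.064 (SE, n = 3) passed the test in PC3 (edgeR adjusted p = 0.0217). It no longer did without PC3 vehicle replicate 1 (0.0596) or without PC3 pentamidine replicate 2 (0.114), both as edgeR adjusted p. In DU145 GSR had 98.6, 102 and 98.7 CPM with vehicle and 97.2, 95.9 and 95.6 CPM with pentamidine. These groups did not overlap, yet the log2 fold change of -0.05 did not pass the test (95% interval -0.13 to 0.038; edgeR adjusted p = 0.445), and its sign turned with scaling by library size alone (0.0045).

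The peroxidases were the most abundant of the 10 per length and changed little. GPX1, which reduces hydrogen peroxide in the cytosol, had 106, 117 and 134 CPM in PC3 with vehicle and 132, 137 and 131 CPM with pentamidine, and the groups overlapped. Its log2 fold change of 0.16 ± 0.071 (SE, n = 3) did not pass the test in PC3 (edgeR adjusted p = 0.0719), but did so without PC3 vehicle replicate 3, at 0.26 and an edgeR adjusted p of 0.00242. In DU145 GPX1 rose from 239, 248 and 237 CPM to 287, 273 and 268 CPM, with a log2 fold change of 0.19 ± 0.035 (edgeR adjusted p = 9.7e-06).

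GPX4 reduces lipid hydroperoxides in membranes and is the peroxidase that restrains ferroptosis. It had 135, 136 and 159 CPM in PC3 with vehicle and 178, 170 and 161 CPM with pentamidine. In DU145 it had 341, 342 and 336 CPM with vehicle and 402, 376 and 354 CPM with pentamidine. Every pentamidine library lay above every vehicle library of its line. On the log2 scale this was a rise of 0.25 ± 0.065 (SE, n = 3; edgeR adjusted p = 0.00546) in PC3 and 0.16 ± 0.035 (edgeR adjusted p = 3.2e-04) in DU145.

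GLRX, the cytosolic glutaredoxin that reduces glutathione-protein disulfides, was the scarcest member. PC3 libraries held 21, 18 and 17 counts with vehicle and 44, 46 and 35 with pentamidine, or 1.17 to 1.42 and 2.36 to 3.27 CPM, with no overlap. This was a log2 fold change of 1.16 ± 0.26 (SE, n = 3; edgeR adjusted p = 0.00164). DU145 libraries held 37, 35 and 41 counts with vehicle and 33, 39 and 48 with pentamidine, and the groups overlapped. There the log2 fold change was 0.06 (95% interval -0.39 to 0.51; edgeR adjusted p = 0.874). Changes of a size within that interval could not be told from 0 at this depth.

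In sum over the members, 8 of 10 passed the test in PC3 (6 higher and 2 lower), where 43.4% of the 13861 genes tested did so (21.7% higher and 21.7% lower). CHAC1 and GLRX also had a log2 fold change above 1, the threshold of the study, which 4.75% of all genes tested passed. In DU145 5 of 10 passed, all higher, where 34% of the 14313 genes tested did so (17.2% higher). CHAC1 and CBS passed the threshold of the study there, as 2.03% of all genes did. The groups of libraries did not overlap for 8 members in PC3 (52.1% of all genes tested) and for 7 in DU145 (44% of all genes tested). The median log2 fold change of the members was 0.22 in PC3 and 0.10 in DU145, beside 0.0046 and 0.0085 over all genes tested.

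**Figure D3:**
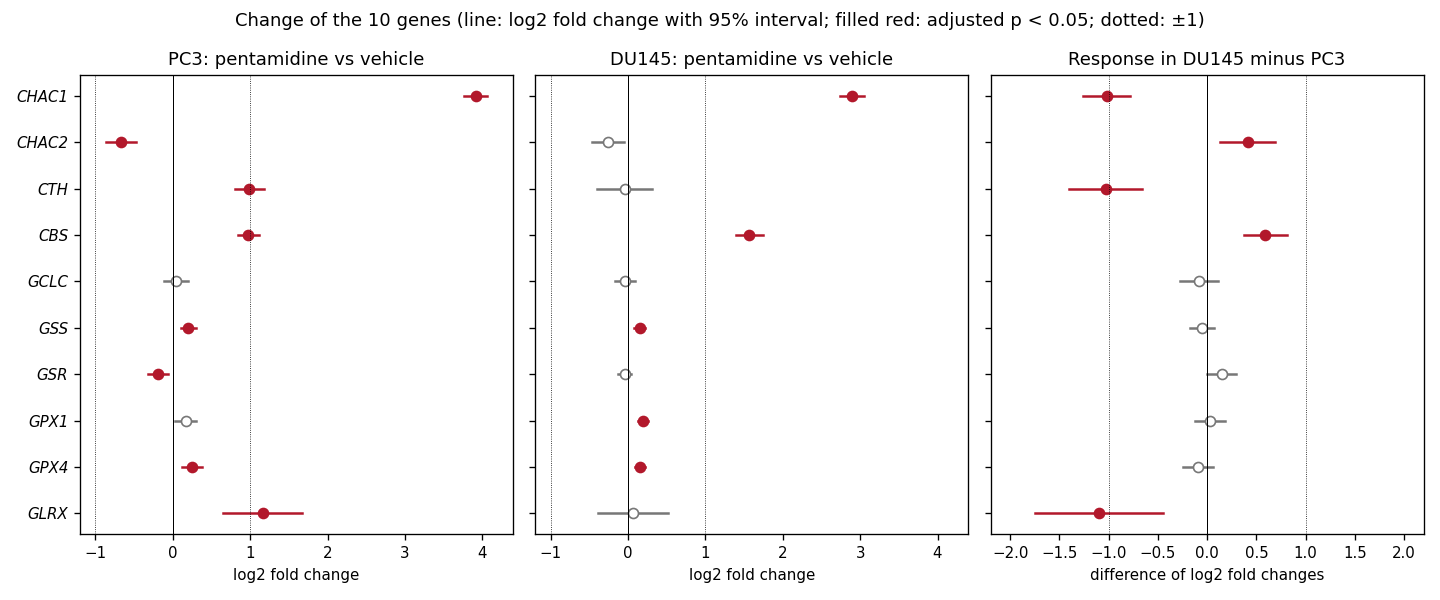
Log2 fold change of the 10 genes with pentamidine in PC3 and in DU145, and the difference of these values (DU145 minus PC3), on the horizontal axes, with lines for the 95% interval, filled red points at an edgeR adjusted p below 0.05 and dotted lines at a log2 value of 1 and -1. CHAC1 stood furthest to the right in both lines, at 3.91 and 2.89, and in the difference CHAC1, CTH and GLRX lay near -1.

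The response differed between the lines for 5 of the 10 genes by a test of the difference itself, which 20.4% of the 15226 genes tested passed (10.3% higher in DU145 and 10.2% lower). Of the 5, 2 were higher and 3 lower. CHAC1 rose less in DU145 than in PC3, by -1.02 ± 0.12 (SE) on the log2 scale (edgeR adjusted p = 3.5e-07). CTH differed by -1.03 ± 0.19 (edgeR adjusted p = 1.8e-04) and GLRX by -1.10 ± 0.33 (edgeR adjusted p = 0.0183), both lower in DU145. CBS differed by 0.59 ± 0.11 (edgeR adjusted p = 3.0e-04), with the larger rise in DU145. CHAC2 differed by 0.41 ± 0.14, with the larger fall in PC3 (edgeR adjusted p = 0.0390), and this call was lost in 9 of the 12 fits that left out 1 library, at an edgeR adjusted p of up to 0.127. GLRX lost its call with DESeq2 (adjusted p = 0.0501) and with limma on log2(CPM + 1) and log2(CPM + 0.1) (adjusted p = 0.105 and 0.0602). GCLC, GSS, GSR, GPX1 and GPX4 had differences between -0.09 and 0.15 that did not pass the test. CHAC1, CTH and GLRX exceeded 1 in size, as 2.62% of all genes did with a passed test. Without DU145 vehicle replicate 1 or without DU145 pentamidine replicate 1 only 1 member did, as with scaling by library size alone, and 0 did with each of the 3 limma settings.

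With vehicle the lines already differed in 7 of the 10 genes, which is close to the 65.3% of the 14394 genes tested. Of the 7, 3 were higher in PC3 (31.5% of all genes tested) and 4 lower (33.8%), and the vehicle libraries did not overlap for 8 members (69.1% of all genes tested). CTH was 2.62-fold and CBS 2.39-fold higher in PC3 (log2 1.39 ± 0.15 and 1.26 ± 0.10, SE, n = 3; edgeR adjusted p = 4.9e-07 and 1.2e-08), and CHAC2 was higher by 0.45 (edgeR adjusted p = 0.00141). GPX4, GPX1 and GLRX were 2.41-fold, 2.06-fold and 2.12-fold higher in DU145, with log2 values of PC3 minus DU145 of -1.27, -1.05 and -1.08 (edgeR adjusted p = 1.5e-11, 1.0e-09 and 0.00112). GSR was 1.46-fold higher in DU145 (edgeR adjusted p = 2.4e-07). CHAC1 (-0.10, 95% interval -0.37 to 0.17), GCLC (-0.13, -0.27 to 0.011) and GSS (0.09, -0.0086 to 0.19) did not pass the test. The difference in CBS was 1.51 with CBSL counts added.

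Per kilobase of exon, the order of the genes changed mainly through CHAC1. In PC3 with vehicle GPX1 (83.3 ± 9.94 CPM per kilobase, SD, n = 3) and GPX4 (71.1 ± 6.72) led and overlapped each other. GSS (37.3 ± 1.60), GSR (18.5 ± 1.05) and CHAC2 (15.7 ± 1.17) followed, each separate from the next. CTH (5.15 ± 0.462), CHAC1 (4.31 ± 0.414), CBS (3.96 ± 0.237) and GCLC (3.67 ± 0.131) came after them, and each overlapped its neighbour. GLRX (0.197 ± 0.0202) was last. With pentamidine CHAC1 moved from rank 7 to rank 3, at 64.9 ± 1.72 CPM per kilobase, between GPX4 (84.1 ± 4.21) and GSS (42.7 ± 0.365) and overlapping neither. In DU145 CHAC1 moved from rank 6 (4.55 ± 0.590) to rank 4 (33.6 ± 1.11), between GSS (38.0 ± 0.622) and GSR (25.6 ± 0.232) and again overlapping neither. CBS and CTH held ranks 9 and 8 in DU145 with vehicle (1.63 ± 0.166 and 1.93 ± 0.337), where they overlapped. With pentamidine CBS rose to rank 7 (4.81 ± 0.197) and CTH fell to rank 9 (1.86 ± 0.156). These lengths are the union of all annotated exons, which can exceed the transcript that is made. CBS is placed here without the reads of CBSL, so its ranks may be too low.

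Around the 10 genes, 86 other genes of glutathione and cysteine metabolism were listed, of which 80 were in the table and 69 were tested in each line. In PC3 25 of 69 rose, 6 fell and 38 did not pass the test, and in DU145 24 rose, 9 fell and 36 did not pass. Of all genes tested, 21.7% rose and 21.7% fell in PC3, and 17.2% rose and 16.8% fell in DU145, and the counts of the single lists given next are to be read against these shares. The median log2 fold change of the listed genes was 0.14 in PC3 and 0.08 in DU145, beside 0.0046 and 0.0085 over all genes tested.

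**Figure D4:**
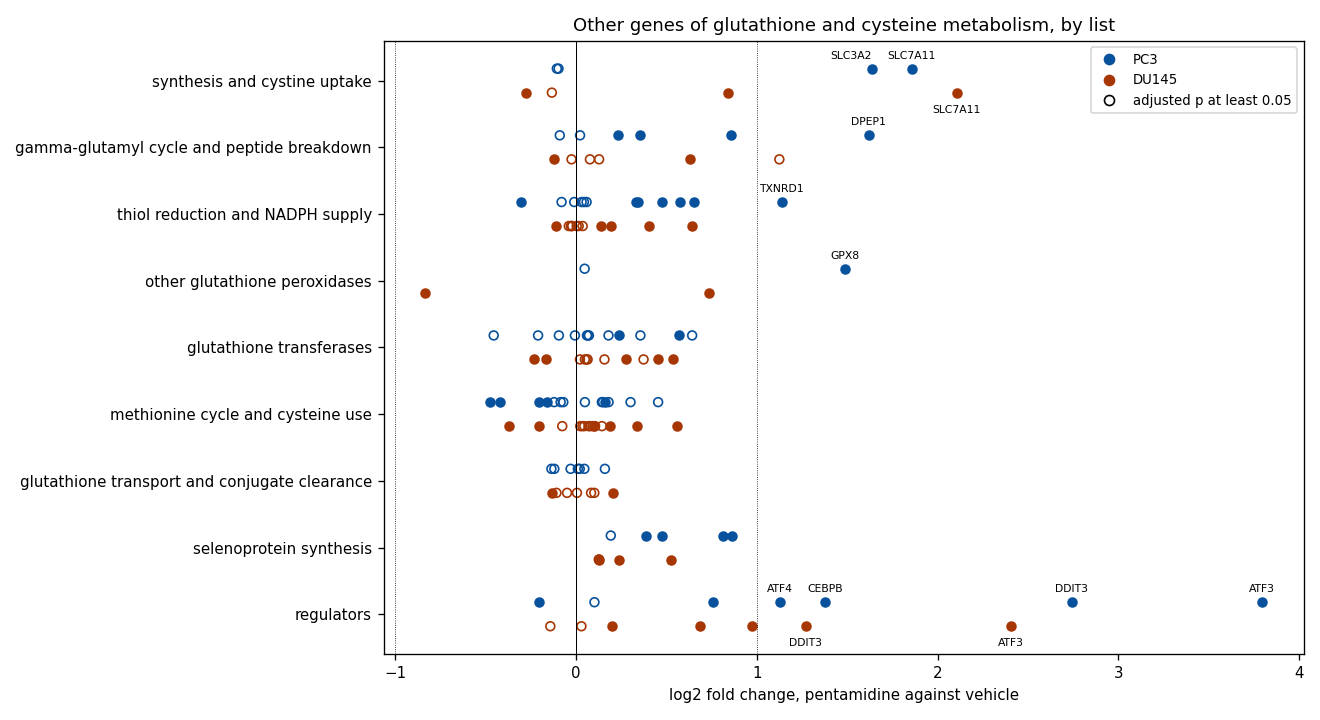
Log2 fold change with pentamidine (horizontal axis) of each tested gene of the 9 lists (vertical axis), PC3 above and DU145 below in each list, with filled points at an edgeR adjusted p below 0.05 and names for genes that also exceed 1 in size. The named genes lie to the right, in cystine uptake, peptide breakdown, thioredoxin reduction, other peroxidases and regulators, and 0 genes passed with a log2 fold change below -1 by edgeR, DESeq2 or limma on log2(CPM + 1).

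In the list of synthesis and cystine uptake, 2 of 4 genes rose in each line, and both were the subunits of the cystine transporter. SLC7A11, the cystine-glutamate antiporter, went from 63.0 to 75.9 CPM with vehicle to 244 to 272 CPM in PC3 (log2 fold change 1.86; edgeR adjusted p = 5.7e-13). In DU145 it went from 19.8 to 23.9 CPM to 92.3 to 95.8 CPM (2.11; edgeR adjusted p = 1.9e-34). Its heavy chain SLC3A2 rose by 1.63 in PC3 and 0.84 in DU145 (edgeR adjusted p = 2.7e-13 and 1.4e-27). GCLM, the modifier subunit that partners GCLC, changed by -0.11 on the log2 scale in PC3 (not passed; edgeR adjusted p = 0.205, but 0.0242 without PC3 vehicle replicate 3) and fell by 0.28 in DU145 (edgeR adjusted p = 1.6e-06).

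In the gamma-glutamyl cycle, 4 of 6 tested genes rose in PC3, and 1 rose and 1 fell in DU145. OPLAH, the 5-oxoprolinase that turns the product of the ChaC enzymes back into glutamate, rose by 0.86 in PC3 and 0.63 in DU145 (edgeR adjusted p = 2.0e-08 and 1.3e-11). GGCT, a gamma-glutamylcyclotransferase that does not act on glutathione itself, had log2 fold changes of 0.02 and 0.13 (edgeR adjusted p = 0.937 and 0.446). DPEP1, a dipeptidase that splits cysteinylglycine, rose by 1.62 in PC3 from 4 to 12 counts to 19 to 34 (edgeR adjusted p = 0.00298), and had at most 5 counts in any DU145 library. GGT7 rose by 0.35 in PC3 (edgeR adjusted p = 4.8e-05), with 0.08 in DU145 (edgeR adjusted p = 0.283).

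Of 12 genes for thiol reduction and NADPH supply, 6 rose and 1 fell in PC3 (of all genes tested, 21.7% each way), and 4 rose and 1 fell in DU145 (17.2% and 16.8%). TXNRD1, the cytosolic thioredoxin reductase, rose by 1.14 in PC3 and 0.64 in DU145 (edgeR adjusted p = 1.9e-12 and 5.7e-24), while GSR, its glutathione counterpart, did not rise in either. GLRX5, a mitochondrial glutaredoxin, was the 1 gene of this list that fell in PC3, by 0.30 (edgeR adjusted p = 0.00149). GPX8, a peroxidase of the endoplasmic reticulum, rose by 1.49 in PC3 (24 to 32 counts to 68 to 91) and 0.74 in DU145 (edgeR adjusted p = 1.2e-05 and 2.3e-13). GPX3, the secreted peroxidase, fell by 0.83 in DU145 on 13 to 32 counts (edgeR adjusted p = 0.0342), a call lost with DESeq2 (adjusted p = 0.146), with all 12 samples in 1 edgeR fit (0.0581), with limma on log2(CPM + 1) (0.157) and log2(CPM + 0.1) (0.171), and without DU145 vehicle replicate 2 or 3 or DU145 pentamidine replicate 2 or 3 (edgeR adjusted p of 0.0654 to 0.139).

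Selenoprotein synthesis, which GPX1, GPX4 and TXNRD1 require, had 4 of 5 genes higher in PC3 and 3 of 5 in DU145, with 0 lower by edgeR, DESeq2 or limma on log2(CPM + 1). DESeq2 called 3 and 2 of them higher. Of the glutathione transferases 2 of 12 rose in PC3, where 21.7% of all genes tested did so, and 3 rose and 2 fell of 11 in DU145, where 17.2% and 16.8% did so. In glutathione transport and conjugate clearance 0 of 7 passed in PC3 with edgeR, where 2 had an unadjusted p below 0.05, and 0 with DESeq2 or limma on log2(CPM + 1), and 1 rose and 1 fell in DU145. In the methionine cycle and cysteine use 1 rose and 4 fell of 14 in PC3, and 4 rose and 2 fell of 15 in DU145. SQOR, the mitochondrial enzyme that oxidizes hydrogen sulfide, fell in both lines, by 0.48 and 0.37 (edgeR adjusted p = 0.0095 and 4.1e-06), and lost its call in PC3 without PC3 vehicle replicate 2 (0.0721) or PC3 pentamidine replicate 3 (0.0535). MTR, methionine synthase, which turns homocysteine back into methionine, fell by 0.42 in PC3 (edgeR adjusted p = 7.0e-05), with -0.08 in DU145 (edgeR adjusted p = 0.209).

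Among 7 regulators, 5 rose and 1 fell in PC3 and 5 rose in DU145. ATF4, which drives the amino acid response, had 388 to 432 CPM in PC3 with vehicle and 862 to 930 CPM with pentamidine, and 363 to 386 and 703 to 745 CPM in DU145. Its log2 fold change was 1.13 in PC3 and 0.97 in DU145 (edgeR adjusted p = 2.3e-11 and 1.1e-31). DDIT3, the stress factor CHOP, rose by 2.74 and 1.27 (edgeR adjusted p = 2.4e-10 and 1.6e-11), and ATF3 by 3.79 and 2.41 (edgeR adjusted p = 5.7e-13 and 2.2e-10). CEBPB, a C/EBP partner, rose by 1.38 and 0.69 (edgeR adjusted p = 3.0e-06 and 1.3e-12). Its PC3 vehicle libraries were uneven, at 24.0 to 50.8 CPM with a median of 28.3. The log2 fold change of CEBPB in PC3 ranged from 1.17 to 1.77 over the alternatives. NFE2L2, which encodes NRF2, the activator of antioxidant response elements, rose by 0.76 and 0.20 (edgeR adjusted p = 2.6e-09 and 2.2e-04).

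The genes whose levels ran most like CHAC1 over the 12 libraries, by Pearson's r of log2 CPM among 15225 other genes, were OPLAH (0.997), PSAT1 (0.995), CEBPG (0.993), MTHFD2 (0.991) and PSPH (0.991). For CHAC2 they were CDC6 (0.981), DNAJB1, RANBP6, PPP2R1B and DNTTIP2 (0.967). For CTH they were DUSP16 (0.994), TMEM154, SYNE1, GGT7 and KCTD20 (0.992). The 12 points fall into 4 groups of 3, so that r mainly describes the group levels, and no p is given. OPLAH, for instance, had 29.4 to 30.5 CPM in PC3 with vehicle, 28.6 to 31.2 in DU145 with vehicle, 45.5 to 47.4 in DU145 with pentamidine and 52.6 to 55.7 in PC3 with pentamidine. That is the order of the CHAC1 groups over a much narrower range.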

How the data were processed

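PC3 and DU145 libraries were compared, pentamidine against vehicle, with 3 samples per group assigned from their titles. The authors aligned paired reads of Oligo(dT)-selected RNA with HISAT2 2.1.0 to GRCh38, per the submitters' processing notes. The counting program, annotation and strand setting are not given in the sources used here. The deposited counts are whole reads per gene without normalization. The authors' CPM table was deposited as FPKM by its name, yet it holds counts scaled to library totals: 100% of 384924 values gave whole reads (within 0.01 reads). With edgeR on those reads 658 genes in PC3 and 290 in DU145 passed the threshold of the study, as many as on the counts. The authors' own fold changes and p-values, deposited per line, were not used. Of 33595 entries 32077 genes were kept, 1 per name and set of counts.

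edgeR 4.0.16 (R 4.3.3) quasi-likelihood tests were run over all genes on counts, with TMM normalization, filterByExpr (minimum count 10) and the Benjamini-Hochberg adjustment. A gene passed the test at an adjusted p below 0.05, and passed the threshold of the study with an absolute log2 fold change above 1 as well. Each line was fitted on its 6 samples, vehicle groups on 6, and the difference in response (DU145 minus PC3) on all 12. Intervals are 95% normal intervals from the SE. Levels are CPM with TMM factors of all 12 libraries, and exon lengths are from GENCODE 29. Alternatives were RLE factors, library size alone, no mitochondria-encoded genes, no filter, DESeq2 1.42.0, a replicate block, limma 3.58.1 on log2(CPM + 1), also for genes with a mean CPM of at least 0.5 alone, and on log2(CPM + 0.1) (these understate changes of low genes), 1 fit of all samples, and each sample left out. Adding near-identical copies and using recovered reads were chosen after seeing the data. limma was planned for FPKM and was run on CPM. Scripts were tested on simulated data. The members, lists and tests were chosen with earlier results of these data known.

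Genes named beside the members are listed genes past the threshold of the study, the 3 largest passed changes per line and direction, GGCT, GCLM, GPX8, TXNRD1, SLC7A11, ATF4, DDIT3 and NFE2L2, and the 5 genes most like CHAC1, CHAC2 and CTH. Count precision covers counting error only, since reads carry no molecular identifiers. TMPRSS2, CD3E and 6 listed pathway genes were not analysed here, and some marker genes are not reported here. Of the other marker genes KLK2 and KLK3 had at most 3 counts, and PECAM1, VWF and CDH5 at most 10.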

Additional observations from a re-analysis of the deposited data

Results flagged for a closer look

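The response to pentamidine differed between the lines, by the interaction term of an edgeR fit of all 12 libraries, for 5 of the 10 genes and 21 of the 71 listed pathway genes tested (7 higher and 14 lower in DU145), beside 20.4% of all genes tested. The 10 of these that are named above were chosen mostly for a large change in 1 line. On the log2 scale (DU145 minus PC3) the differences of the 10 genes were -1.02 for CHAC1, 0.41 for CHAC2, -1.03 for CTH, 0.59 for CBS and -1.10 for GLRX. CHAC1, CBS and SLC3A2 rose in both lines and differed in size. For CTH and GLRX, DU145 values did not pass the test on their own.

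Among the other genes the differences were -1.39 for ATF3, -1.47 for DDIT3, -0.69 for CEBPB, -0.56 for NFE2L2, -0.79 for SLC3A2, -0.50 for TXNRD1, -0.75 for GPX8 and -0.27 for GGT7. Some of these calls were lost: ATF3 without DU145 vehicle replicate 2 (edgeR adjusted p = 0.0583), CEBPB with DESeq2 (adjusted p = 0.139) and with limma on log2(CPM + 1) and log2(CPM + 0.1) (adjusted p = 0.149 and 0.0709), GPX8 with limma on log2(CPM + 1) without and with its filter on mean CPM (adjusted p = 0.124 and 0.0810) and GGT7 with limma on log2(CPM + 0.1) (adjusted p = 0.0543). GLRX5, named next, lost its call in 4 of the 12 fits without 1 library, at an edgeR adjusted p of up to 0.0846. MTR and GLRX5, which fell in PC3, had differences of 0.35 and 0.28. ATF4 (-0.16; edgeR adjusted p = 0.0716), OPLAH (-0.23; 0.0662) and SLC7A11 (0.25; 0.0676) did not pass this test. The mitochondria-encoded share reached lower values in DU145 than in PC3 with pentamidine, as given in the report, and its part in these differences was not tested beyond the normalization without those genes, which left the CHAC1 difference at -1.03.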

How the results depend on the processing

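CHAC1, CBS, GSS and GPX4 in both lines, CHAC2, CTH and GLRX in PC3 and GPX1 in DU145 kept their direction and passed the test under every alternative run. The members past the threshold of the study fell from 2 to 1 in PC3 with limma on log2(CPM + 1), with or without its filter. For the difference between lines they fell from 3 to 1 with library size alone and to 0 with each of the 3 limma settings, and members past the adjusted p alone went from 5 to 3 with DESeq2. Between vehicle groups they fell from 5 to 3 with each of the 3 limma settings. Leaving out 1 library gave 2 to 3 members past the threshold and 7 to 9 past the adjusted p in PC3, 2 and 5 to 6 in DU145, 1 to 3 and 4 to 5 for the difference, and 4 to 5 and 7 between vehicle groups. The shift in log2 CHAC1 ratio then ranged from 3.83 to 3.95 (GCLC), 3.65 to 3.83 (GSS) and 4.56 to 4.60 (CHAC2) in PC3, and from 2.86 to 3.04, 2.70 to 2.82 and 3.04 to 3.27 in DU145.

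Signs turned only for values that passed no test. In DU145, library size alone, limma on log2(CPM + 1) and limma on log2(CPM + 0.1) gave 0.0084, 0.013 and 0.017 for CTH, 0.011, 0.0098 and 0.010 for GCLC, and 0.0045, 0.0045 and 0.0045 for GSR, and the GSS difference between lines became 0.014, 0.014 and 0.015. With 1 library left out the values ranged over 0, from -0.015 to 0.073 for GCLC and -0.26 to 0.22 for GGCT in PC3, from -0.18 to 0.031 for CTH, -0.095 to 0.16 for GLRX and -0.082 to 0.26 for GGCT in DU145, from -0.069 to 0.10 for the GPX1 difference, and from -0.18 to 7.5e-05 for CHAC1 between vehicle groups. The causes were not tested.

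Same-numbered samples did not deviate together over 15226 genes (correlations of -0.073 to 0.039). The pentamidine groups of the 2 lines were not compared in this way, and a batch that touches few genes would not show in these correlations. GGCT, for instance, was low in replicate 1 of both vehicle groups. It had 130 counts there in PC3, beside 269 and 258, and 125 in DU145, beside 221 and 231. With the replicate block the members past the threshold stayed at 2, 2, 3 and 5 in the 4 comparisons, and the CHAC2 difference lost its call (adjusted p = 0.0579). DESeq2 (0.109) and no filter (0.0946) lost it too. GSR gained a difference between lines with library size alone (edgeR adjusted p = 0.0377). It also did so with limma on log2(CPM + 1) with its filter on mean CPM (adjusted p = 0.0366). GPX1 passed in PC3 without a filter (0.0386) and with all 12 samples in 1 fit (0.026), and GSS passed between vehicle groups in 5 settings. GLRX, on 17 to 48 counts per library, is the member most limited by depth.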
